A study of Homo sapiens with 12 samples.

Results

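The 37 genes of the human mitochondrial genome, 2 rRNAs, 13 mRNAs and 22 tRNAs, were followed in RNA-seq and Ribo-seq libraries of a 293T line. They were chosen by gene symbol, and all 37 were found among the 58735 genes of the count table. The cells are 293T 4A cells, a human embryonic kidney line that carries a doxycycline-inducible construct of 4EBP1-4A, the translational repressor with its phosphorylation sites changed to alanine. Cultures were treated with DMSO or with doxycycline at 2 mg/mL, given as 12 h in the labels and as 2 h in the series text. The results text of the paper gives a longer time than either, so the exposure is uncertain. All cultures then received cycloheximide, which stalls cytosolic ribosomes, for 10 min. There were 3 RNA-seq libraries of total RNA and 3 Ribo-seq libraries (the RNA fragments that ribosomes protect) in each group, and values are listed in the order of replicates 1, 2 and 3. Both groups carry the construct and no group received doxycycline without it, so the agent and the protein it induces cannot be told apart. This bears on mitochondrial RNA because doxycycline also binds the ribosome of mitochondria. The paper calls the 3 replicates biological, while the labels give no culture or date for a replicate. The p-values therefore measure the spread between these libraries, which may be technical.

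Mitochondrial DNA is transcribed from both strands into long precursors by the polymerase POLRMT. Most mRNAs and both rRNAs lie on transcripts that run the length of the genome and are flanked by tRNAs, and excision of the tRNAs releases the other RNAs. The mRNAs encode core subunits of complexes I, III and IV of the respiratory chain and of the ATP synthase, and are translated inside the organelle by ribosomes built on the 2 rRNAs. After processing, each RNA is stabilized and degraded on its own, so RNAs of a common precursor need not have equal levels. On the + strand of the reference lie the rRNAs, 12 mRNAs and 14 tRNAs, while MT-ND6 and 8 tRNAs are encoded on the other strand.

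The genes abut and in places overlap, which bears on what a count can hold, since the table leaves out reads that fall on more than 1 gene. The 3 junctions of mRNA genes that share bases are shown from GRCh38, 5′ to 3′ on the + strand, with the shared bases that fall in the window in capitals. MT-ATP8 and MT-ATP6 share 46 bases (chrM:8527-8572, window 8518 to 8547), MT-ND4L and MT-ND4 share 7 (chrM:10760-10766, window 10751 to 10775), and MT-ATP6 and MT-CO3 share 1 (chrM:9207-9207, window 9195 to 9221).
MT-ATP8 and MT-ATP6: agaaccaaaATGAACGAAAATCTGTTCGCT
MT-ND4L and MT-ND4: cctactccaATGCTAAaactaatcg
MT-ATP6 and MT-CO3: cgacaacacataAtgacccaccaatca
In each window the capitals open with the first base of the downstream reading frame. The overlap is largest relative to the gene for MT-ATP8, which has 207 bases (chrM:8366-8572), against 681 for MT-ATP6 (chrM:8527-9207) and 784 for MT-CO3 (chrM:9207-9990).

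Reads on genes numbered 51519700 to 57824136 in the RNA-seq libraries with DMSO and 47862104, 45887231 and 21687906 in those with doxycycline. Doxycycline replicate 3 stood apart, since reads on genes made up 5.94% of its count table, against 22.9% and 19.7% in doxycycline replicates 1 and 2 and 25.2% to 30.8% with DMSO. The comparisons are therefore given with all 6 RNA-seq libraries and without doxycycline replicate 3. EIF4EBP1, the gene of the induced protein, was at 156, 157 and 169 CPM (reads of a gene for each 1000000 reads on genes, after scaling by the TMM factors of edgeR) with DMSO and at 260, 281 and 267 CPM with doxycycline, with no overlap between the groups. Of 8 marker genes of the 293 line, 8 had at least 10 reads in every RNA-seq library. Of 10 skin markers 1 reached that level (KRT10), with summed levels of 5.39 to 5.93 CPM with DMSO and 2.68 to 5.28 CPM with doxycycline. The 4 blood markers summed to 0.123 to 0.311 CPM with DMSO and 0.149 to 0.237 CPM with doxycycline.

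The mitochondrial genes held 15.8%, 14.3% and 15.8% of the reads on genes with DMSO, and 13.6%, 11.8% and 5.76% with doxycycline. Every doxycycline library was thus below every DMSO library, and doxycycline replicate 3 was far below the other two. The log2 ratio of the mean shares was -0.56, and -0.27 without doxycycline replicate 3. The 2 rRNAs accounted for 97.6% of the mitochondrial reads, and MT-RNR2 alone for 80.6%. The 13 mRNAs together took 0.362%, 0.341% and 0.370% of the reads on genes with DMSO, and 0.329%, 0.303% and 0.148% with doxycycline. The number of rRNA reads for each mRNA read moved little beside these shares, from 42.8, 41.1 and 41.9 with DMSO to 40.3, 38.0 and 37.8 with doxycycline. In bulk RNA, fewer mitochondrial transcripts per cell and a different makeup of the rest of the library cannot be told apart.

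The 15 rRNAs and mRNAs differed widely in level. Per kilobase of gene length, MT-RNR2 was highest with DMSO at 84557 ± 6703 CPM per kb (SD, n = 3), and MT-RNR1 followed at 26845 ± 1199 CPM per kb. Both are the structural RNAs of the mitochondrial ribosome, MT-RNR2 of its large subunit and MT-RNR1 of its small subunit. Among mRNAs the order began with MT-CO3 at 1253 ± 177 CPM per kb and MT-CO1 at 907 ± 39.5, both subunits of complex IV (cytochrome c oxidase). MT-CYB, the cytochrome b of complex III, came next at 442 ± 32.4 CPM per kb. MT-CO1, MT-CO3 and MT-CYB together held 75.4% of the mRNA reads. MT-CO2, the remaining mitochondrial subunit of complex IV, was at 298 ± 17.7 CPM per kb. A middle group followed, with MT-ND4 at 139 ± 2.59, MT-ND5 at 127 ± 8.20, MT-ATP6 at 120 ± 8.18, MT-ND1 at 95.1 ± 8.26 and MT-ND4L at 91.7 ± 3.87 CPM per kb. The ND genes encode subunits of complex I and the ATP genes subunits of the ATP synthase. The lowest were MT-ND3 at 23.7 ± 3.09, MT-ND2 at 22.2 ± 2.03, MT-ND6 at 16.9 ± 2.78 and MT-ATP8 at 15.1 ± 0.841 CPM per kb. The highest mRNA was 82.8-fold above the lowest. Of the 12 pairs of neighbours in the order of the mRNAs, 4 overlapped in range among the DMSO libraries (MT-ND5 and MT-ATP6, MT-ND1 and MT-ND4L, MT-ND3 and MT-ND2, MT-ND6 and MT-ATP8). MT-ND4L and MT-ND4 lie on a bicistronic mRNA, as do MT-ATP8 and MT-ATP6, yet in neither pair did the members have like counts per length. The counts leave out reads that fall on both genes of a pair, while the full gene length was used. The part of this in the levels, which bears most on MT-ATP8, was not tested.

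Part of these differences in level can depend on which reads align to a single place, because the nuclear genome holds copies of mitochondrial sequence. Of all windows of 50 bases in a gene, those found nowhere in the nuclear chromosomes of GRCh38 were 100% for MT-ND3 and MT-ND4L and 98.4% for MT-CYB, but 56.4% for MT-RNR1 and MT-ND2, 53.3% for MT-ATP6 and 49.4% for MT-CO1. MT-CO3 was at 69.1% and MT-RNR2 at 84.3%. The part of this share in the levels was not tested. The read length is not given in the sources used here, and the windows measure exact copies only.

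**Figure D1:**
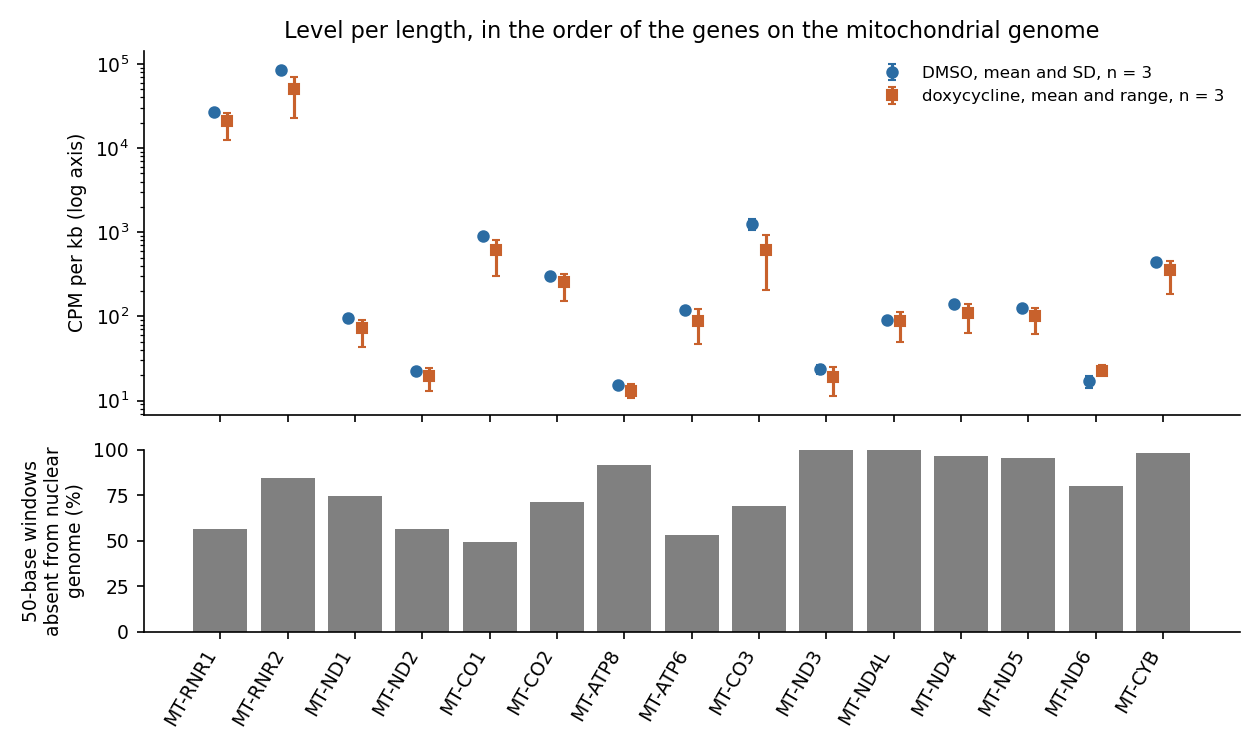
The upper panel plots the RNA-seq level per kilobase (CPM per kb, log axis) of the 2 rRNAs and 13 mRNAs in genome order, with DMSO as mean and SD and doxycycline as mean and range over 3 libraries. The lower panel gives the percent of 50-base windows of each gene that are absent from the nuclear genome, which ran from 49.4% for MT-CO1 to 100% for MT-ND3 and MT-ND4L.

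Next, the RNA-seq levels with doxycycline were compared with DMSO. With all 6 libraries, none of the 23 mitochondrial genes with enough reads passed the threshold, an adjusted p of 0.05 (the quasi-likelihood test of edgeR, adjusted by Benjamini-Hochberg over all genes). Among all 20552 genes tested, 0.00% were called lower and 0.00% higher. At an unadjusted p under 0.05, 2 of the 23 passed (MT-TL1 lower and MT-ND6 higher), while 4.13% of all genes passed as lower and 9.58% as higher. DESeq2's Wald test and the likelihood ratio test of edgeR also called 0 mitochondrial genes, with 4 and 5 of them at an unadjusted p under 0.05. Of all 20552 genes, 1320 were lower and 2328 higher at that unadjusted p in the Wald test. In the likelihood ratio test these numbers were 1428 and 2304. The log2 fold changes were negative for 14 of the 15 rRNAs and mRNAs, with a median of -0.32, where 53.7% of all genes were negative and the median of all genes was -0.035. The exception was MT-ND6. In 4 of the 15, MT-RNR1, MT-RNR2, MT-CO1 and MT-CO3, all doxycycline libraries lay below all DMSO libraries, which was so for 20.8% of all genes. In MT-ND6 all of them lay above, as for 17.7% of all genes.

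**Figure D2:**
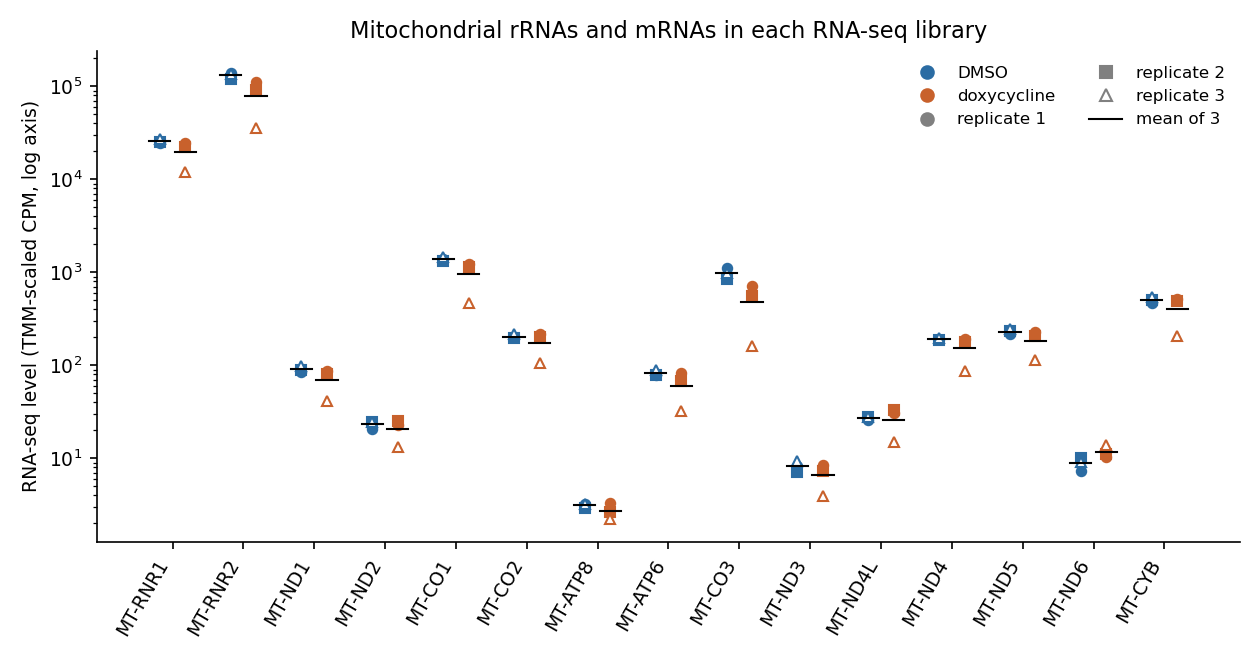
Each point is the RNA-seq level (TMM-scaled CPM, log axis) of a mitochondrial rRNA or mRNA in 1 library, with blue for DMSO, orange for doxycycline, symbols for replicates and a line at the mean of 3. Doxycycline replicate 3 (open orange triangle) is the lowest library for every gene shown except MT-ND6, where it is the highest at 13.9 CPM.

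Without doxycycline replicate 3, 3 of 22 mitochondrial genes were lower with doxycycline (MT-CO3, MT-RNR2 and MT-CO1) and 0 were higher by the quasi-likelihood test of edgeR. In the same test 4.03% of all 20459 genes were lower and 3.40% higher. The median log2 fold change of the 15 rRNAs and mRNAs was -0.085, against -0.0099 for all genes, and 11 of the 15 were negative, against 51.6% of all genes.

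MT-CO3 had the largest change. It was at 1117, 839 and 992 CPM with DMSO (983 ± 139, SD, n = 3) and at 719, 561 and 163 CPM with doxycycline. The groups did not overlap, and the lowest DMSO library was closer to the highest doxycycline library than to the highest DMSO library. The log2 fold change without doxycycline replicate 3 was -0.62 (SE 0.10, adjusted p = 0.00564), and with it -1.03 (SE 0.46, adjusted p = 0.326). MT-CO3 reads made up 29.2%, 23.8% and 25.4% of the reads on the 13 mRNAs with DMSO, and 21.4%, 18.7% and 12.8% with doxycycline, so it fell relative to the other mRNAs too. MT-ATP6, its upstream neighbour, was at 79.1, 78.4 and 88.4 CPM with DMSO and at 82.5, 67.3 and 32.0 CPM with doxycycline. Its groups overlapped, and it did not pass the test without doxycycline replicate 3 (log2 fold change -0.13, SE 0.082, adjusted p = 0.329) or with it (-0.43, SE 0.30, adjusted p = 0.385).

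The remaining genes of complex IV differed from MT-CO3 in size. MT-CO1, which encodes the catalytic subunit, was at 1408, 1334 and 1455 CPM with DMSO and at 1241, 1134 and 470 CPM with doxycycline. Its groups did not overlap, and its log2 fold change without doxycycline replicate 3 was -0.24 (SE 0.064, adjusted p = 0.0334), against -0.56 (SE 0.32, adjusted p = 0.334) with all 6 libraries. MT-CO2 was at 199.7, 195 and 218 CPM with DMSO and at 218, 200.3 and 105 CPM with doxycycline, so that only doxycycline replicate 3 lay below the DMSO libraries. Its log2 fold change was 0.032 without that library (SE 0.068, adjusted p = 0.814) and -0.23 with it (SE 0.25, adjusted p = 0.565).

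Of the rRNAs, MT-RNR2 was at 138840, 119814 and 136820 CPM with DMSO (131825 ± 10451, SD, n = 3) and at 110303, 91574 and 35942 CPM with doxycycline. Its groups did not overlap, with log2 fold changes of -0.39 (SE 0.072, adjusted p = 0.00971) without doxycycline replicate 3 and -0.73 (SE 0.36, adjusted p = 0.326) with it. MT-RNR1 was at 24887, 25014 and 26928 CPM with DMSO and at 24803, 22467 and 12016 CPM with doxycycline. Doxycycline replicate 1 lay just below the lowest DMSO library, and the log2 fold change of -0.12 did not pass the test without doxycycline replicate 3 (SE 0.059, adjusted p = 0.212), nor did that of -0.37 with it (SE 0.24, adjusted p = 0.364). Within a library, MT-RNR1 had 17.9%, 20.9% and 19.7% as many reads as MT-RNR2 with DMSO, and 22.5%, 24.5% and 33.4% with doxycycline. All doxycycline libraries were above all DMSO libraries in this ratio, by 0.44 on the log2 scale (two-sided exact permutation test, p = 0.1 and 0.3 when adjusted over 3 ratios, where a comparison of 3 with 3 cannot go below 0.1). Without doxycycline replicate 3 the difference was 0.27 (exact permutation test, p = 0.2, below which 3 against 2 cannot go). Such a ratio does not depend on how libraries are scaled.

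None of the 7 mRNAs of complex I and the mRNA of complex III passed the test in either fit. MT-CYB was at 471, 499 and 544 CPM with DMSO and at 514, 492 and 209 CPM with doxycycline. Doxycycline replicates 1 and 2 lay within the range of the DMSO libraries, and the log2 fold change was -0.0067 (SE 0.068) without doxycycline replicate 3 and -0.32 (SE 0.31) with it. MT-ND1, MT-ND2, MT-ND3, MT-ND4 and MT-ND5 had log2 fold changes between -0.12 and 0.067 without doxycycline replicate 3, and between -0.38 and -0.16 with it, and the groups of each overlapped in both cases. MT-ND4L was at 25.9, 27.7 and 28.0 CPM with DMSO and at 30.5, 33.1 and 14.8 CPM with doxycycline. Doxycycline replicates 1 and 2 were above all DMSO libraries and replicate 3 below all of them, with a log2 fold change of 0.22 without replicate 3 (SE 0.077, adjusted p = 0.0811) and -0.054 with it (SE 0.27, adjusted p = 0.913). Its partner on the bicistronic mRNA, MT-ND4, was at 191, 188 and 195 CPM with DMSO and at 192, 179 and 87.0 CPM with doxycycline. Of the ATP synthase genes, MT-ATP8 was at 3.22, 2.93 and 3.24 CPM with DMSO and at 3.28, 2.63 and 2.21 CPM with doxycycline, with overlapping groups and log2 fold changes of -0.085 (SE 0.14) without doxycycline replicate 3 and -0.20 (SE 0.17) with it.

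MT-ND6 is the mRNA of the opposite strand. It was at 7.31, 10.2 and 9.04 CPM with DMSO and at 10.4, 11.1 and 13.9 CPM with doxycycline, so the groups did not overlap, although DMSO replicate 2 and doxycycline replicate 1 were close. The log2 fold change was 0.28 without doxycycline replicate 3 (SE 0.12, adjusted p = 0.132) and 0.41 with it (SE 0.17, adjusted p = 0.326). MT-ND6 had 1.55%, 2.05% and 1.66% as many reads as MT-CYB with DMSO, and 2.03%, 2.26% and 6.63% with doxycycline. These groups overlapped, and the log2 difference of 0.84 did not pass (exact permutation test, two-sided, p = 0.2, 0.3 when adjusted over 3 ratios), with 0.30 left without doxycycline replicate 3 (exact permutation test, p = 0.4). In the third ratio, MT-ND1 had 17.8%, 17.9% and 18.3% as many reads as MT-CYB with DMSO and 16.7%, 16.6% and 19.9% with doxycycline, a log2 difference of -0.025 (exact permutation test, two-sided, p = 1). Without doxycycline replicate 3 the groups did not overlap and the difference was -0.11 (exact permutation test, p = 0.2, 0.3 when adjusted over 3 ratios). These are the first and the last mRNA gene along the + strand. The sources used here do not give a strand setting for the counting; without strand, reads of MT-ND6 and of precursors antisense to it cannot be told apart.

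**Figure D3:**
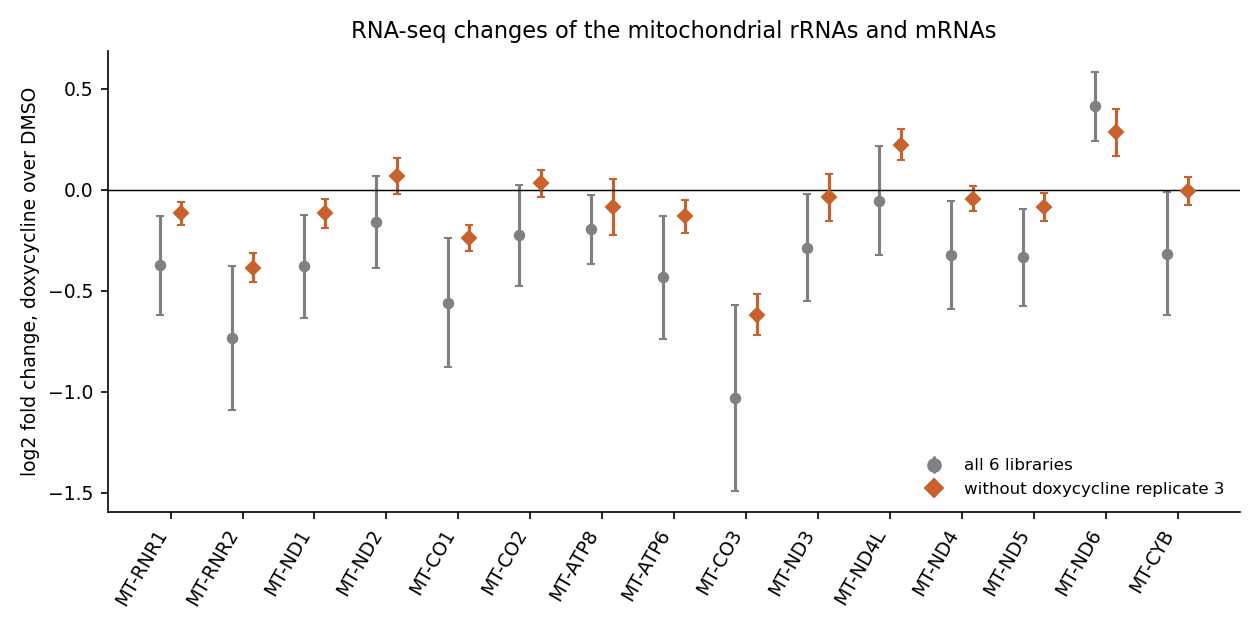
Points are log2 fold changes of doxycycline over DMSO in RNA-seq for the 2 rRNAs and 13 mRNAs, with bars of 1 standard error, from all 6 libraries (grey) and without doxycycline replicate 3 (orange). Without that library the standard errors shrink, and MT-CO3 (-0.62), MT-RNR2 (-0.39) and MT-CO1 (-0.24) are the genes that passed the test.

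Some of these measures were ordered like a property of the libraries, and others were not. Reads aligned to more than 1 place made up 54.9%, 62.3% and 58.6% of the count table with DMSO, and 65.4%, 69.9% and 88.4% with doxycycline; the sources do not say whether such a read enters once or once per alignment. Ordered by this share, the 6 libraries were in the same order as by the percent of MT-RNR1 to MT-RNR2 reads, and in the opposite order to the MT-CO3 share of mRNA reads. The CPM of MT-CO3 and of MT-RNR2 were also in the opposite order to this share over all 6 libraries. Within the DMSO libraries the mitochondrial share of reads on genes and the CPM of MT-CO1 and MT-RNR1 were in neither order. The part of this property in the results was not tested. With no overlap between the groups in the share of multiply aligned reads, treatment and this property cannot be told apart in the change of MT-CO3, MT-RNR2 and MT-CO1.

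**Figure D4:**
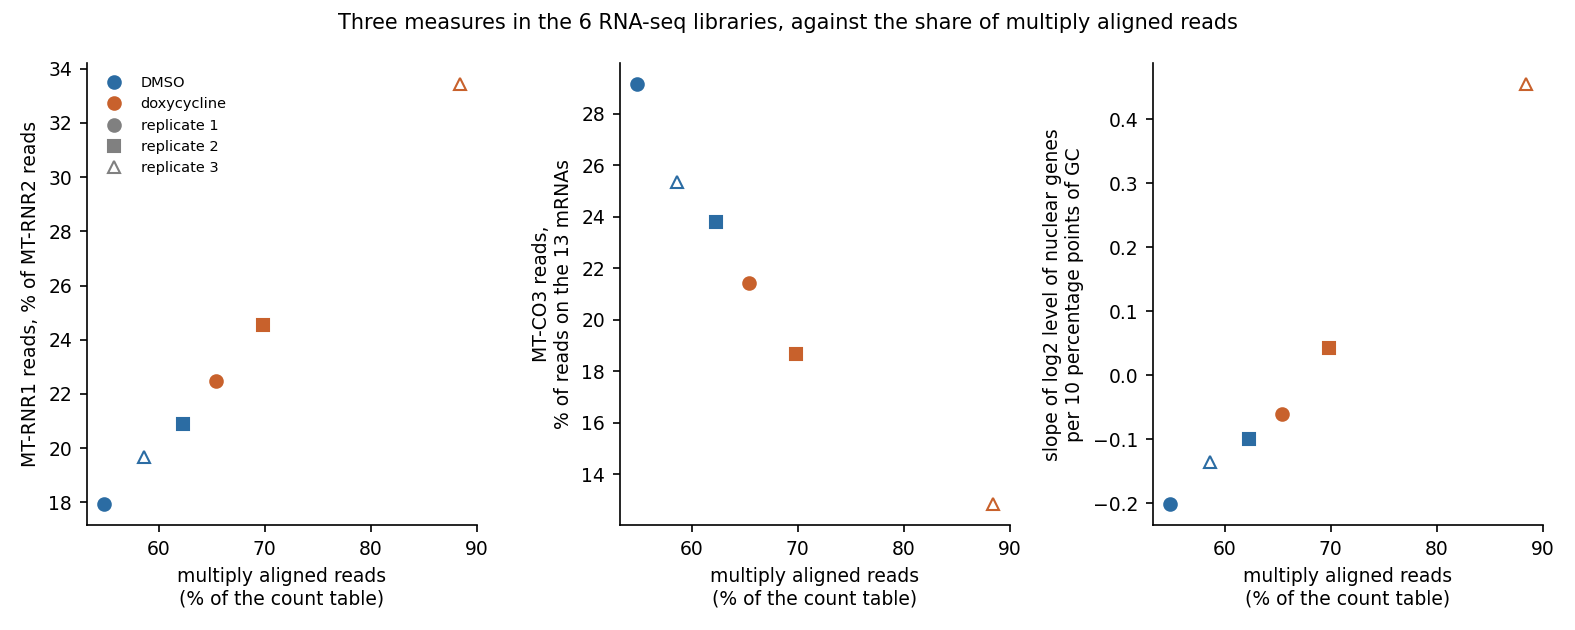
Each point is 1 of the 6 RNA-seq libraries (blue DMSO, orange doxycycline, symbols for replicates), with multiply aligned reads in percent of the count table on the x axis. The y axes give MT-RNR1 reads in percent of MT-RNR2 reads (17.9 to 33.4), MT-CO3 reads in percent of reads on the 13 mRNAs (29.2 to 12.8), and the slope of the log2 level of nuclear genes per 10 percentage points of GC (-0.20 to 0.45); in all panels the libraries fall in the order of the x axis.

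The relation between level and base composition of nuclear genes changed in the same order. Over 17522 nuclear genes with at least 10 reads in every RNA-seq library, the slope of the log2 level (relative to the mean of the 6 libraries) per 10 percentage points of GC was -0.20, -0.10 and -0.13 with DMSO, and -0.061, 0.043 and 0.45 with doxycycline. GC-rich genes were thus relatively highest in doxycycline replicate 3. The mitochondrial rRNAs and mRNAs have a GC content of 39.6% to 47.7%. Nuclear genes in that range had a median log2 fold change of -0.19 with all 6 libraries, of which 76.6% were negative, and of -0.076 without doxycycline replicate 3, with 68.2% negative. The 15 mitochondrial genes had medians of -0.32 and -0.085 in the same fits, with 14 and 11 of them negative. MT-CO3, at 46.6% GC, and MT-RNR2, at 42.8%, lay well below the nuclear medians. With GC-adjusted offsets and without doxycycline replicate 3, an alternative chosen after seeing the data, MT-CO3 (log2 fold change -0.60, adjusted p = 0.0124), MT-RNR2 (-0.30, adjusted p = 0.0254) and MT-CO1 (-0.21, adjusted p = 0.036) passed the test as lower. MT-ND4L then passed as higher (0.30, adjusted p = 0.0258). In that fit 1.94% of all genes were called lower and 2.00% higher.

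**Figure D5:**
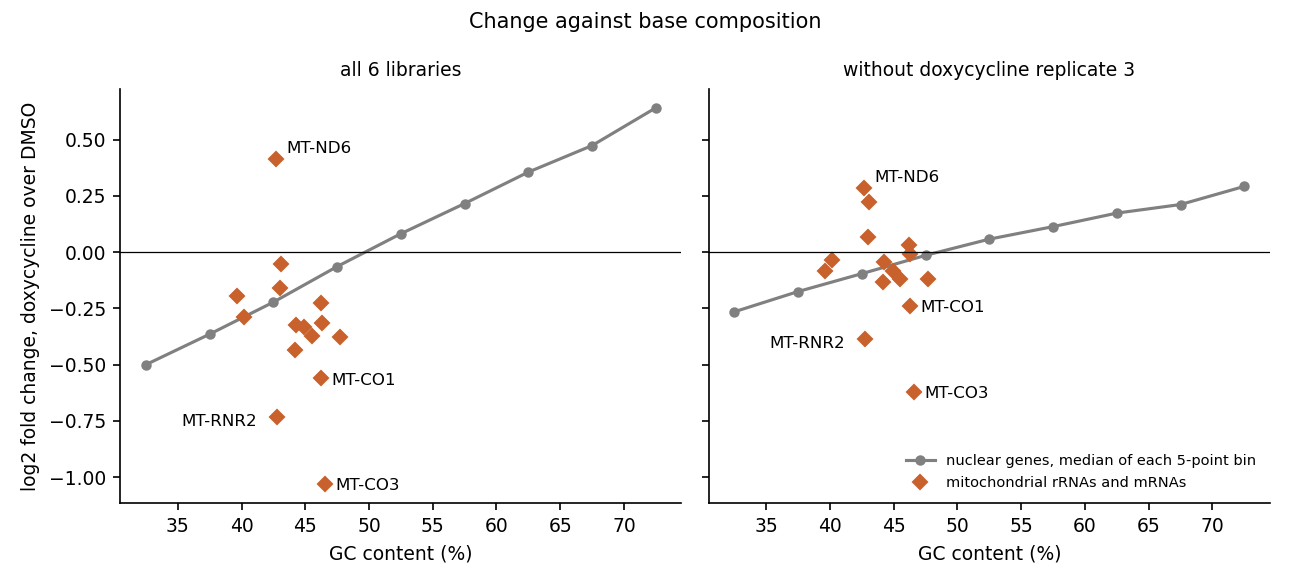
Orange diamonds are the log2 fold changes of the mitochondrial rRNAs and mRNAs against their GC content (%), and grey points the median of nuclear genes in bins of 5 percentage points, with all 6 libraries (left) and without doxycycline replicate 3 (right). The nuclear medians climb from -0.50 to 0.64 on the left and from -0.27 to 0.29 on the right, and MT-CO3, MT-RNR2 and MT-CO1 lie below the line in both panels while MT-ND6 lies above it.

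The tRNAs were thinly covered. The 22 tRNA genes had 543, 563 and 513 reads with DMSO and 438, 446 and 298 with doxycycline. MT-TN and MT-TK had 0 RNA-seq reads, where 3 reads, the limit that a count of 0 allows, correspond to 0.0549 to 0.0616 CPM in the DMSO libraries (counting error only). None of the 50-base windows of either gene is absent from the nuclear genome, which is also so for MT-TS1, MT-TA, MT-TE, MT-TW and MT-TQ, with 120, 58, 28, 22 and 20 reads. Enough reads for a test were found for 8 tRNA genes (MT-TV, MT-TL1, MT-TI, MT-TA, MT-TS1, MT-TD, MT-TT and MT-TP), and 14 were not tested. None of the 8 passed with 6 libraries, and none of 7 without doxycycline replicate 3. MT-TT, the threonine tRNA, had the most reads and was at 4.18, 4.84 and 4.62 CPM with DMSO and at 3.38, 4.53 and 4.46 CPM with doxycycline, with overlapping groups. MT-TL1, a leucine tRNA that directly follows MT-RNR2, was at 2.38, 2.40 and 2.44 CPM with DMSO and at 2.11, 1.10 and 0.710 CPM with doxycycline. Its groups did not overlap, and its log2 fold change was -0.58 without doxycycline replicate 3 (SE 0.20, adjusted p = 0.0762) and -0.83 with it (SE 0.33, adjusted p = 0.326). MT-TP, the proline tRNA of the opposite strand, was at 0.714, 0.800 and 0.821 CPM with DMSO and at 1.09, 0.885 and 1.30 CPM with doxycycline, with a log2 fold change of 0.34 without doxycycline replicate 3 (SE 0.22, adjusted p = 0.343) and 0.46 with it (SE 0.20, adjusted p = 0.326). MT-TD (aspartate) was also higher in all doxycycline libraries, at 0.201, 0.229 and 0.123 CPM with DMSO and 0.234, 0.259 and 0.276 CPM with doxycycline. These levels rest on 11, 12 and 6 reads with DMSO and 11, 12 and 7 with doxycycline, so the separation comes mostly from library size. The log2 fold changes of MT-TD were 0.40 (SE 0.42, adjusted p = 0.588) and 0.44 (SE 0.33, adjusted p = 0.427). MT-TV, MT-TI, MT-TA and MT-TS1 had overlapping groups, with log2 fold changes between -0.13 and 0.51 with all 6 libraries. Mature tRNAs are shorter than most fragments of an RNA-seq library and heavily modified, so these reads need not come from mature tRNA.

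In Ribo-seq the mitochondrial genes had 703 reads in the 6 libraries, of 210186 to 1002424 reads on genes each. The cycloheximide used acts on cytosolic ribosomes and not on those of mitochondria. The rRNAs held 484 of these reads, the tRNAs 130 and the mRNAs 89, although reads aligned to ribosomal RNA had been removed by the authors. Of the 37 genes, 25 had no Ribo-seq read, including 8 of the 13 mRNAs. After TMM scaling, a count of 0 allows 4.15 CPM in the library of the largest effective size and 7.10 CPM in that of the smallest. MT-RNR2 had 11, 131 and 66 reads with DMSO and 74, 94 and 29 with doxycycline. MT-RNR1 had 0, 19 and 4 reads with DMSO and 21, 9 and 26 with doxycycline. MT-ND1 had 49, 0 and 4 reads with DMSO and none with doxycycline, so 49 of its 53 reads came from DMSO replicate 1. MT-CYB had 22 reads, MT-CO1 12, and MT-CO3 and MT-ND5 1 each.

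The mitochondrial gene with the second most footprint reads was a tRNA. MT-TL2, the other leucine tRNA, had 87, 10 and 7 reads with DMSO and 6, 0 and 11 with doxycycline, 121 in all, against 23 reads in the 6 much deeper RNA-seq libraries. Most of them again came from DMSO replicate 1, the shallowest Ribo-seq library. Of 6 mitochondrial genes with at least 10 Ribo-seq reads (MT-RNR1, MT-RNR2, MT-ND1, MT-CO1, MT-CYB and MT-TL2), 0 changed in Ribo-seq, where 0.00% of 1607 genes were lower and 0.00% higher, and 0 changed in translation efficiency (TE, the Ribo-seq relative to the RNA-seq level), where 0.150% of 1334 genes were lower and 0.00% higher (edgeR's quasi-likelihood test). MT-ND1 was below an unadjusted p of 0.05 in both (adjusted p = 0.456 and 0.209), and the others in neither. At that unadjusted p, 88 of the 1607 genes were lower and 59 higher in Ribo-seq. In TE 178 of the 1334 genes were lower and 100 higher. DESeq2's Wald test called 0 of the 6 in either measure. Among all genes it called 4 lower and 2 higher in Ribo-seq, and 44 lower and 26 higher in TE. The likelihood ratio test of edgeR called 0 of the 6 in Ribo-seq and 1, MT-ND1, in TE. That last test called 115 of all 1334 genes lower and 85 higher in TE. A change in the translation of mitochondrial mRNAs was not detectable in these libraries, and depth was not their only limit. In Ribo-seq the 8 marker genes of the 293 line summed to 7.10 to 62.2 CPM with DMSO and 10.6 to 21.7 CPM with doxycycline. The 10 skin markers summed to 4.73 to 36.7 CPM with DMSO and 6.50 to 25.8 CPM with doxycycline. Of these, KRT5 had 29 Ribo-seq and 0 RNA-seq reads, while KRT10 had 0 and 1310. The source of these reads was not tested.

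Finally, the nuclear genes that transcribe, process, modify and degrade mitochondrial RNA were examined, as a list of 49 genes. All 49 were tested. With 6 libraries 0 were called, as among all genes, and the median log2 fold change was -0.13 with 29 of 49 negative, against 53.7% of all genes. Without doxycycline replicate 3, 4 were higher, against 3.40% of all genes, and 0 lower, against 4.03%. The median was then -0.025 with 27 of 49 negative, against 51.6% of all genes. POLRMT, the mitochondrial RNA polymerase, was at 64.4, 75.7 and 65.3 CPM with DMSO and at 90.8, 98.6 and 157 CPM with doxycycline, with no overlap (log2 fold change 0.47, SE 0.075, adjusted p = 0.00504 without doxycycline replicate 3). PUS1, a pseudouridine synthase that modifies tRNAs, rose by 0.33 on the log2 scale (SE 0.075, adjusted p = 0.0197). GTPBP3, which takes part in the modification of mitochondrial tRNA wobble bases, rose by 0.28 (SE 0.068, adjusted p = 0.0251), and TBRG4, an RNA-binding protein of the FASTK family, by 0.24 (SE 0.067, adjusted p = 0.0397). With all 6 libraries the log2 fold changes were 0.75 for POLRMT, 0.57 for PUS1, 0.53 for GTPBP3 and 0.40 for TBRG4, each with an adjusted p of 0.326. These 4 genes have a GC content of 55.1% to 66.1%, in the range where nuclear medians were above 0. After GC adjustment without doxycycline replicate 3, POLRMT was at 0.25 (adjusted p = 0.017), PUS1 at 0.19 (adjusted p = 0.0473), TBRG4 at 0.15 (adjusted p = 0.0952) and GTPBP3 at 0.12 (adjusted p = 0.106). Of the 49 genes 3 were called higher in that fit, against 2.00% of all genes, and the third was LRPPRC, which stabilizes mitochondrial mRNAs and is named here after its values were seen, at 0.21 (SE 0.043, adjusted p = 0.0215), against 0.037 without the adjustment (SE 0.060, adjusted p = 0.748) and -0.14 with all 6 libraries (SE 0.17, adjusted p = 0.601).

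Nuclear copies of mitochondrial genes took few reads. The 23 listed copies had 17302 RNA-seq reads, 0.0452% of the number on the mitochondrial genes. The most were on MTRNR2L3, MTRNR2L12 and MTRNR2L1, all copies of MT-RNR2. MTRNR2L3 had 1633, 1253 and 1352 reads with DMSO and 1088, 928 and 201 with doxycycline, with a log2 fold change of -0.33 without doxycycline replicate 3 (SE 0.097, adjusted p = 0.044). For MTRNR2L12 it was -0.48 (SE 0.13, adjusted p = 0.0333) and for MTRNR2L1 -0.27 (SE 0.14, adjusted p = 0.221), next to -0.39 for MT-RNR2. With all 6 libraries MTRNR2L3 was at -0.66, MTRNR2L12 at -0.73 and MTRNR2L1 at -0.41, each with an adjusted p of 0.326. Only uniquely aligned reads were kept, so reads that fit a copy and the mitochondrial gene equally well are left out of both counts. These values are therefore uncertain.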

How the data were processed

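RNA-seq and Ribo-seq counts of 12 libraries of the 293T 4A line were used, grouped by the labels. The authors deposited raw counts per gene. They had cut the linker off the footprints, discarded those matching ribosomal RNA, aligned with STAR to GRCh38 (the labels name GRCh37) and kept uniquely aligned reads on exons. A deposited table of other values, the authors' own RiboDiff comparison with dispersions, TE, p-values and log2 changes, was used only for its gene symbols, which cover 37857 genes. The table of 58735 genes also holds spike-in, viral and counter rows, which stayed out of library sizes and tests. The counters of reads without a gene were 69.1% to 94.1% of the RNA-seq table. In this and all other percentages of the count table, the viral rows were left out of the total.

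Levels were scaled with TMM factors over all genes. Each comparison was a quasi-likelihood test of edgeR 4.0.16 (limma 3.58.1, R 4.3.3) over all genes, with Benjamini-Hochberg adjustment at 0.05. RNA-seq genes needed 10 or more reads in 3 or more libraries; Ribo-seq and TE genes needed 10 or more summed over the 6 libraries of an assay. TE was tested as the assay by treatment interaction. Ratios within libraries used the exact permutation test. Coordinates, GC content of the longest transcript and windows of 50 bases came from GENCODE on GRCh38. Alternatives were DESeq2 1.42.0, other scalings and filters, the replicate block, spike-in totals and leaving out replicates. Python 3.11.15, numpy 2.4.6, scipy 1.17.1, pandas 2.3.3 and matplotlib 3.10.9 were used. The tests were tested on simulated counts.

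The members and gene lists were chosen with earlier results of these data known. All rRNAs and mRNAs are named, tRNAs with enough reads, up to 5 called genes in each direction of the list of 49, and the 3 nuclear copies with the most reads; tRNAs named beyond these were chosen after their values were seen. Same-numbered RNA-seq libraries deviated together for number 1 (r = 0.459) but not for 2 (r = -0.447) or 3 (r = 0.0277), so the numbers were not taken to pair the samples.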

Additional observations from a re-analysis of the deposited data

How the results depend on the processing

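Doxycycline replicate 3 decided the counts of calls. Without it 825 genes were lower and 696 higher, where all 6 libraries gave 0 and 0, and 3 mitochondrial genes were lower, where they gave 0. Leaving out any other library gave 0 calls, so the ranges were 0 to 825, 0 to 696 and 0 to 3. With all 6 libraries, DESeq2's Wald test called 2 lower and 1 higher, the likelihood ratio test 7 and 5, and spike-in totals 196 higher, none of them mitochondrial. GC-adjusted offsets with all 6 libraries, added after seeing the data, gave 0 and 0 genes, also with the replicate block. Settings without doxycycline replicate 3 that were added after seeing the data gave 397 lower and 410 higher genes with GC-adjusted offsets, 339 and 1442 with library totals, 1083 and 955 with DESeq2's Wald test, and 0 and 0 with spike-in totals. Their mitochondrial calls were 3, 2, 3 and 0 lower, and 1, 1, 1 and 0 higher, the higher gene being MT-ND4L. MT-CO1 was the gene not called with library totals. The replicate block called 0 mitochondrial genes, as did the block with GC-adjusted offsets, and it left the MT-RNR1 to MT-RNR2 difference at 0.44 (exact sign-flip permutation, p = 0.25). The numbers do not pair the samples, and libraries did not each correlate best with their own number. In TE the likelihood ratio test called 1 mitochondrial gene lower, MT-ND1 (adjusted p = 0.0295), which rests on the 49 reads of DMSO replicate 1. The same test called 115 lower and 85 higher among all 1334 genes. The log2 ratio of mitochondrial shares of reads on genes ranged from -0.80 to -0.27 without single replicates. With all entries of the count table except the viral rows as denominator it was -1.17.

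MT-RNR1, MT-RNR2, MT-ND1, MT-CO1, MT-ATP6, MT-CO3 and MT-ND5 were negative and MT-ND6 positive in all 21 RNA-seq alternatives run. The MT-ND1 to MT-CYB difference ranged from -0.11 to 0.022 without single replicates, and was 0.015 without doxycycline replicate 1 and 0.022 without 2. Among the log2 fold changes of the rRNAs and mRNAs, the signs that turned did so towards higher values. The tRNA MT-TV turned lower, from 0.054 with all 6 libraries to -0.23 without doxycycline replicate 3. Without single replicates the log2 fold change ranged from -0.34 to 0.067 for MT-ND2, from -0.41 to 0.032 for MT-CO2 and from -0.26 to 0.22 for MT-ND4L, each highest without doxycycline replicate 3. With spike-in totals, MT-ND2 was at 0.12, MT-CO2 at 0.055, MT-ATP8 at 0.13 and MT-ND4L at 0.22. With library totals MT-ND4L was at 0.058. With GC-adjusted offsets MT-ND2 was at 0.034, MT-ATP8 at 0.11 and MT-ND4L at 0.13, and with the block added at 0.024, 0.12 and 0.098. Without doxycycline replicate 3, GC-adjusted offsets gave 0.15 for MT-ND2, 0.057 for MT-CO2, 0.058 for MT-ATP8, 0.096 for MT-ND3, 0.30 for MT-ND4L, 0.014 for MT-ND4 and 0.017 for MT-CYB. Library totals gave 0.13 for MT-ND2, 0.097 for MT-CO2, 0.028 for MT-ND3, 0.29 for MT-ND4L, 0.020 for MT-ND4 and 0.059 for MT-CYB. Spike-in totals gave 0.16 for MT-ND2, 0.12 for MT-CO2, 0.016 for MT-ATP8, 0.051 for MT-ND3, 0.32 for MT-ND4L, 0.053 for MT-ND4 and 0.079 for MT-CYB. DESeq2's Wald test gave 0.071 for MT-ND2, 0.036 for MT-CO2 and 0.23 for MT-ND4L. The cause was not tested. Spike-in totals moved the median of all genes to 0.34 with 6 libraries and to 0.10 without doxycycline replicate 3.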

Other observations

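The spike-in RNAs had 13830 to 74191 reads in the RNA-seq libraries and 0 or 1 in the Ribo-seq libraries, and did not move as a block. Of 17 with a mean of at least 200 reads, 5 had log2 differences between doxycycline replicates 1 and 2 and DMSO of at most -1.66, and the other 12 lay between -0.14 and 0.93.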
